A study of Mus musculus with 2 samples.

Results

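The cells described here are granulocytes of the injured mouse retina that carry RNA of the chemokine receptor gene Ccr3 and of Retnlg, which encodes the secreted protein resistin-like gamma. They were chosen by their RNA. A cell had to show at least 1 UMI, the tag that marks 1 captured RNA molecule, of at least 3 of 8 genes: Retnlg, Ccr3, Cebpe, Alox15, G0s2, Siglecf, Gapt and F5. It also had to hold at most 5 UMIs of C1qa, C1qb and C1qc together and under 10 of H2-Aa, which kept most microglia and antigen-presenting cells out. Of 3670 cells that passed the cell filter, 136 met this rule, and all 136 came from the same library.

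The study compared retinal immune cells of mice given MSC-sEV with those of mice given PBS, both after injury of the optic nerve, which carries the axons of the retina to the brain, and both at 2 weeks by the sample names. The labels do not spell out MSC-sEV. Each group was 1 pool of retinas from 6 C57BL/6 mice aged 6 to 8 weeks, enriched for cells with CD45, a surface protein of leukocytes, on magnetic beads and profiled by droplet sequencing of RNA 3′ ends. With 1 library per group there is no replicate check, so no p-value is given. Every interval is a 95% interval for counting error and leaves out the spread between cells and between mice.

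Granulocytes are leukocytes packed with secretory granules. Eosinophils among them carry CCR3, the receptor for the eotaxin chemokines, and the sialic acid receptor Siglec-F in mice, mature under the transcription factors GATA1 and C/EBP epsilon, and depend on interleukin 5. Neutrophils carry the alarmins S100A8 and S100A9 and the receptors CXCR2 and G-CSFR, the product of Csf3r. Retnlg is best known in mice as a gene of neutrophils, so Retnlg alone does not name the kind of granulocyte.

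In the MSC-sEV library, 136 of 2323 cells were granulocytes by this rule, a share of 5.85% (exact Clopper-Pearson interval 4.93% to 6.89%). In the PBS library 0 of 1347 cells were, which allows a share of up to 0.223% by the limit of 3 counts. Among the leukocytes of the MSC-sEV library that could be classed by markers, the granulocytes were 136 of 464 (29.3%, 25.2% to 33.7%). A further 625 cells of this library, and 282 of PBS, took no class. Any leukocytes among them are outside the 464, so the share holds for classed cells only. The PBS library held 30 cells with the markers of microglia, against 247 in the MSC-sEV library. It held 0 cells classed as monocytes or macrophages, dendritic cells or T or innate lymphoid cells, against 36, 26 and 19 in the MSC-sEV library. Despite the CD45 enrichment, 1214 cells of the MSC-sEV library and 1019 of the PBS library were classed as rods, the light-sensing neurons. The recovery of leukocytes on the beads, the treatment and the number of leukocytes in the retina cannot be told apart with 1 library per group. Depth per cell was close, with a median of 2920 UMIs in MSC-sEV cells and 2601 in PBS cells, and the libraries shared 0 cell barcodes.

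Single rule genes did occur in PBS cells, but never together. In the PBS library 1299 cells showed 0 rule genes, 48 showed 1 and 0 showed more. Of those 48, 41 had a UMI of Siglecf and 5 of G0s2. In the MSC-sEV library 1839 cells showed 0, 238 showed 1 and 39 showed 2, and the rest were spread out as far as the 7 cells that showed all 8. Over all barcodes, with or without the cell filter, the MSC-sEV library held 16987131 UMIs and the PBS library 8439740. The gene sums that follow are not scaled to these totals. Retnlg had 4442 UMIs in the MSC-sEV library and 0 in PBS. Ccr3 had 365 and 0, Cebpe 221 and 0, Alox15 295 and 0, Gapt 392 and 1, F5 192 and 1, G0s2 374 and 9, and Siglecf 231 and 64, each in MSC-sEV and then in PBS. Siglecf was thus the rule gene least tied to these cells: 18.2% of its UMIs in the MSC-sEV library lay in the granulocytes, against 66.0% for Ccr3.

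**Figure D1:**
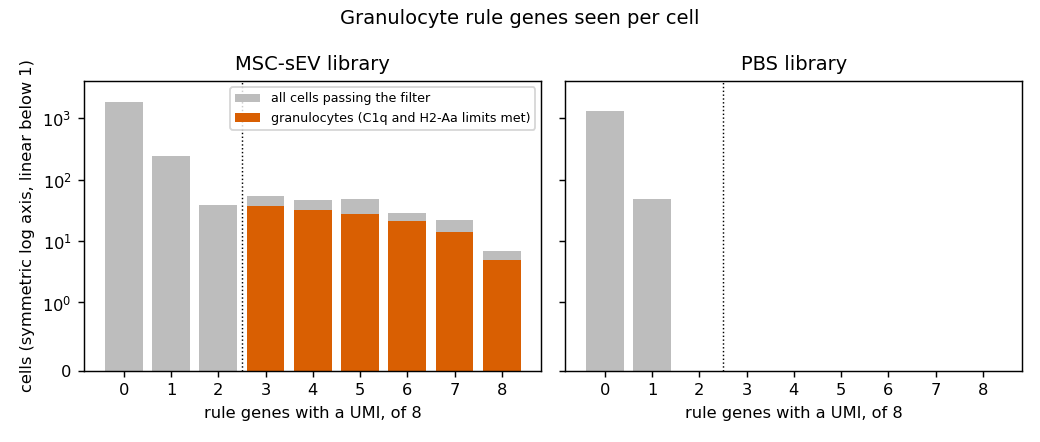
Number of cells (symmetric log axis) by how many of the 8 rule genes had a UMI, in the MSC-sEV library (left) and the PBS library (right); gray bars are all cells that passed the filter, orange bars those that also met the C1q and H2-Aa limits. The dotted line marks the minimum of 3 genes, past which PBS has no cell and MSC-sEV has 136 granulocytes.

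The 136 granulocytes were shallow cells. They held a median of 1332.5 UMIs (501 to 10707) and 769.5 genes, against 11230.5 UMIs and 3272.5 genes in the 328 other leukocytes of the same library. Other leukocytes here are the 247 microglia, 36 monocytes or macrophages, 26 dendritic cells and 19 T or innate lymphoid cells. Mitochondrial genes took a median of 1.96% of UMIs in the granulocytes and 2.80% in the other leukocytes. Because a shallow cell can miss a gene by chance, levels were summed over cells and are given as CPM, a gene's UMIs per 1000000 UMIs of the set. Shares of cells were also computed after every cell had been thinned to 500 UMIs, which left out no granulocyte.

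The rule genes chose the cells, so their values are a description. Among the rule genes Retnlg had the most UMIs, at 8824 CPM. It had a UMI in 94.1% of the granulocytes and a median of 9 UMIs per cell (0 to 117). Apart from ribosomal protein and mitochondrial genes, Gm42418, Malat1, Tmsb4x and Actb, named after their values were seen, had more UMIs. Gm42418, a noncoding RNA, took 73572 CPM in granulocytes, against 25712 CPM in other leukocytes and 26666 CPM in rods. Ccr3, the eotaxin receptor, stood at 888 CPM and was seen in 73.5% of cells, with a median of 1 UMI (0 to 13). Gapt, an adaptor protein of the leukocyte membrane, was seen in 77.2% at 792 CPM, and Cebpe, the late granulocyte transcription factor, in 54.4% at 516 CPM.

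Alox15, the lipoxygenase that makes 12- and 15-hydroxylated lipids, was seen in 50.7% of granulocytes at 608 CPM. F5, coagulation factor V, followed with 48.5% at 416 CPM, and G0s2, an inhibitor of the main triglyceride lipase, with 46.3% at 689 CPM. Siglecf was the sparsest, in 24.3% of granulocytes at 155 CPM, against 29.4 CPM in the other leukocytes, most of it in microglia (38.6 CPM). A UMI of it was no more frequent in granulocytes than in the deeper other leukocytes, where 25.9% of cells had one (33.6% of microglia). After thinning, 9.56% of granulocytes and 2.74% of other leukocytes had one. Retnlg stood at 219 CPM in other leukocytes and 6.66 CPM in rods, where 1.89% of cells had a UMI. Rods should lack these genes, so their share is a guide to RNA free in the droplets. Cells with 2 or more markers of a leukocyte class were not classed as rods, so the share may understate it.

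The edge of the rule was gradual. The 37 granulocytes with exactly 3 rule genes had a median of 1347 UMIs, and 89.2% of them had Retnlg and 54.1% Ccr3. Just outside lay 11 cells with 2 rule genes inside the other limits, with a median of 1819 UMIs; 81.8% of these had Retnlg and 0% Ccr3. A further 71 cells of the MSC-sEV library had at least 3 rule genes and exceeded the C1q or H2-Aa limit.

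Short stretches upstream of 4 genes are shown because they set the genes that define these cells beside a gene of neutrophils. They are the 250 bases before the RefSeq transcript start (GRCm38.p6), read 5′ to 3′ along the gene's strand. Capitals mark matches, on either strand, to the GATA core, the word read by GATA1, and to a C/EBP-type word. The GATA core is GATAA, or on the other strand TTATC. The C/EBP-type word is TTNNGNAA, or on the other strand TTNCNNAA.
Ccr3 promoter, chr9:124021721-124021970 (+ strand): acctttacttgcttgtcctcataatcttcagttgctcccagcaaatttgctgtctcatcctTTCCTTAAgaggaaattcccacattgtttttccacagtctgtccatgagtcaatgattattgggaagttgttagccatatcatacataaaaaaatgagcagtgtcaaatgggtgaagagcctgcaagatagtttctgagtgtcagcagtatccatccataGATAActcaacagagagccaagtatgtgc
Siglecf promoter, chr7:43351091-43351340 (+ strand): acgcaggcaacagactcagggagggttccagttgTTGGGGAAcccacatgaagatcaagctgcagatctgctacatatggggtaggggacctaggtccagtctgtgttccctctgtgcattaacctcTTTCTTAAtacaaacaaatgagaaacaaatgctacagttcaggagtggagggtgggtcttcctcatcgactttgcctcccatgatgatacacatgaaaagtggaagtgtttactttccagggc
Retnlg promoter, chr16:48872358-48872607 (+ strand): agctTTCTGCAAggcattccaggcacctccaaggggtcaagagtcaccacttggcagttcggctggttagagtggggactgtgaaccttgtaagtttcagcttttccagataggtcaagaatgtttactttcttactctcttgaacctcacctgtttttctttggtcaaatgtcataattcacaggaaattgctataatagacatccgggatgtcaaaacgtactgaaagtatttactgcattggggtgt
S100a9 promoter, chr3:90695722-90695971 (- strand): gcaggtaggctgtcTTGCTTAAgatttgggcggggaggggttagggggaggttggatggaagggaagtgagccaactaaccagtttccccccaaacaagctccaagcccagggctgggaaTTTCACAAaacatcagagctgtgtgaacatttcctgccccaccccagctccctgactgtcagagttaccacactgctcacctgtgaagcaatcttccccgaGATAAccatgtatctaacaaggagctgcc
The GATA core lay 29 bases before the start in both Ccr3 and S100a9, and these letters were not in the Siglecf and Retnlg windows. The C/EBP-type word was in all 4 windows. Of 32851 RefSeq promoter windows of the same length, 22.6% held the GATA core and 36.8% the C/EBP-type word, so both are common. A word of the PU.1 type, GAGGAA or on the other strand TTCCTC, was in the Ccr3 and Siglecf windows and in 23.3% of all windows, and it overlapped no capital. In the deposited data nothing was measured on binding at these sites.

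Lists of lineage markers were then read, with a gene called where the interval of the ratio of CPM, granulocytes over other leukocytes, lay wholly beyond 2-fold. Of 10366 genes with at least 20 UMIs in both sets together, 739 were called higher in granulocytes (7.13%) and 336 lower (3.24%). Outside the rule genes, 5 of 8 tested eosinophil markers were called higher and 0 lower, and so were 8 of 10 tested neutrophil markers, with 0 lower. The 5 were Prg2, Il1rl1, Cd24a, Syne1 and Serpinb2, and the 8 were S100a8, S100a9, Cxcr2, Mmp9, Il1r2, Stfa2l1, Padi4 and Hdc. Prg2, the eosinophil major basic protein, had 32 UMIs, in 20.6% of cells (118 CPM, against 1.95 CPM in other leukocytes). Il1rl1, the receptor for interleukin 33, was seen in 31.6% of cells (247 CPM against 16.7 CPM). Gata1 was seen in 8.09% (40.5 against 1.08 CPM), and Il5ra, the interleukin 5 receptor, in 5.15% (33.2 against 1.30 CPM), both under the minimum of 20 UMIs for a call. Rods had Prg2 and Il5ra at 0 and Gata1 at 0.267 CPM.

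Epx, the eosinophil peroxidase, Prg3 and Rnase2b had 0 UMIs in all 136 cells, and the eosinophil ribonucleases Ear6 and Ear1 stood at 25.8 and 14.7 CPM. Of 10 eosinophil granule proteins 5 had 0 UMIs, and of the 3 tested 1, Prg2, was called higher, while the other 2 were lower and not called. Among neutrophil markers Mmp9, the gelatinase, was seen in 35.3% of cells (313 CPM against 7.14 CPM), while S100a8 was seen in 4.41% and S100a9 in 11.0%. Ly6g, Mpo, Elane, Camp, Ngp, Mmp8 and Cxcr1, which encode the neutrophil surface marker Ly6G, granule proteins and a chemokine receptor, had 0 UMIs. Of 12 markers of basophils and mast cells 7 had 0 UMIs as well, among them Mcpt8, Cpa3, Fcer1a and Ms4a2. The 12 summed to 44.2 CPM in granulocytes and 14.9 CPM in other leukocytes, and 0 of the 2 tested were called. Of 14 neutrophil granule proteins 7 had 0 UMIs, and of the 5 tested 3 were called higher (Mmp9, S100a8 and S100a9) and 1 lower (Chil3). Chil3 was also among the markers that chose the monocytes or macrophages. The rule genes cannot support the label of granulocyte, since they chose the cells, and the markers outside the rule are genes of both eosinophils and neutrophils. The neutrophil calls leaned in part on few cells. Of the 683 UMIs of S100a8 and S100a9, 583 lay in 1 cell, and Stfa2l1 was seen in 2 cells. Cxcr2 was seen in 17 cells and Mmp9 in 48, against 124 for Cd24a and 28 for Prg2. Read over all 136 cells together, the markers outside the rule name no single kind of granulocyte.

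**Figure D2:**
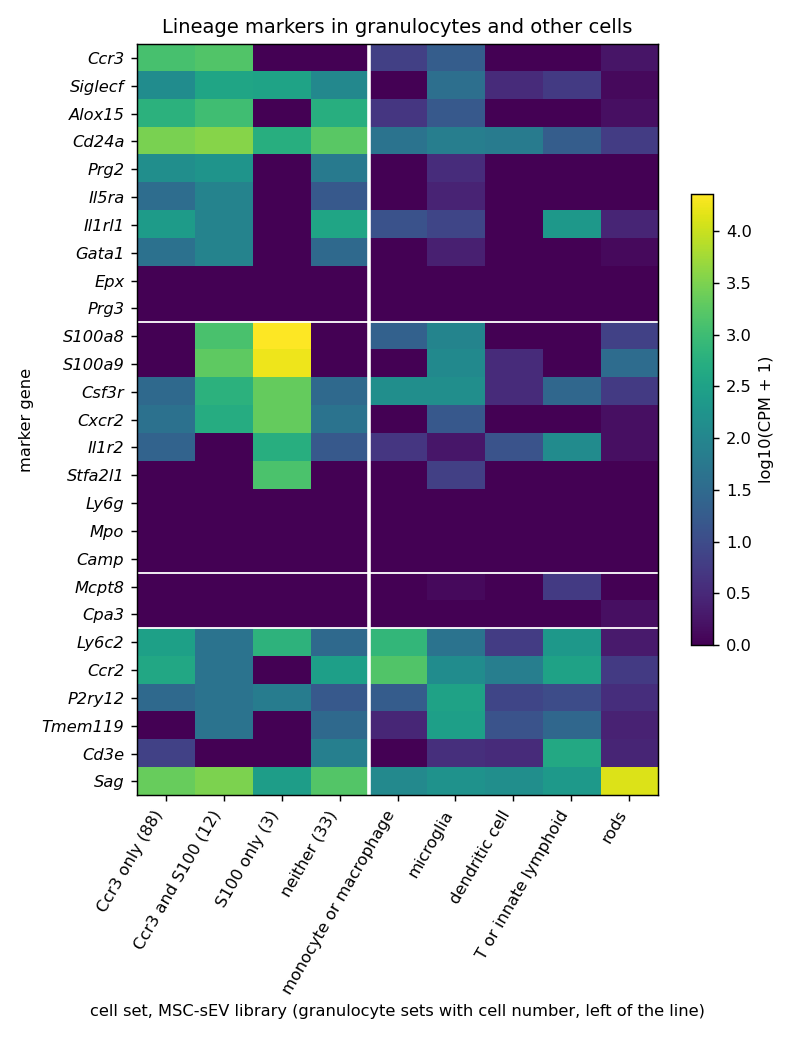
Level of lineage markers, as log10(CPM + 1) by colour, in 4 sets of granulocytes (left of the white line, number of cells in brackets) and in 5 other cell classes of the MSC-sEV library; horizontal lines separate eosinophil, neutrophil, basophil or mast cell, and other markers. Ccr3 and Cd24a are bright in the sets with Ccr3, S100a8 and S100a9 in the set of 3 cells with S100 only, and Epx, Prg3, Ly6g, Mpo and Camp are dark in every granulocyte set.

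Markers of other cells were present too. The 8 microglia markers summed to 767 CPM in the granulocytes, against 6316 CPM in the other leukocytes, with all 8 called lower. The same 8 markers chose the microglia among the other leukocytes, so these calls are a description. The 8 rod markers summed to 8219 CPM in the granulocytes, close to the level of Retnlg, against 695 CPM in the other leukocytes and 66415 CPM in rods, and all 8 were called higher than in the other leukocytes. Rod RNA thus made up a larger part of these shallow cells than of the deeper leukocytes.

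Of the 136 granulocytes, 23 showed at least 3 of the 8 markers of another leukocyte class: 10 of monocytes or macrophages, 9 of microglia, 6 of dendritic cells and 5 of T or innate lymphoid cells, some of more than 1. These 23 cells were deeper, with a median of 3603 UMIs against 1140 in the other 113. They held 5994 CPM of the rule genes, against 17317 CPM in the 113. Their part in the results was not tested beyond the values given without them.

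To ask what RNA sets these granulocytes apart beyond the rule, their summed counts were compared with those of the 328 other leukocytes. Without the 23 cells with markers of other classes, 748 genes were called higher and 378 lower, against 739 and 336 with them. The median log2 ratio of all genes was 0.13. The granulocytes were chosen on the same RNA, so what follows describes them and tests nothing.

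The gene with the highest ratio outside the rule by its lower bound was Cd24a, which encodes a small sialylated surface protein of granulocytes and B cells. It was seen in 91.2% of granulocytes, with a median of 4 UMIs per cell (0 to 25), and after thinning in 71.3%, against 4.88% of other leukocytes and 0.494% of rods. Its level was 2613 CPM in granulocytes and 64.9 CPM in other leukocytes, a ratio of 40.3 (35.1 to 46.2). Rflnb, encoding an organiser of actin filaments, stood at 719 against 18.0 CPM (40.0-fold, 30.8 to 52.4). Pglyrp1, which encodes an antibacterial protein of granules, stood at 575 against 16.7 CPM (34.5-fold, 26.1 to 46.0).

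Several of the named genes encode secreted or granule-linked proteins. Mmp9 was 43.9-fold higher (29.0 to 67.8). Serpinb2, the plasminogen activator inhibitor 2, was seen in 26.5% of granulocytes and 47.4-fold higher (29.0 to 80.0), with 0 UMIs in the whole PBS library. Rab44, a Rab-family GTPase, was 32.5-fold higher and Cxcl2, a chemokine that acts on CXCR2, 32.4-fold, though Cxcl2 was seen in 14.0% of granulocytes and 21 of its 57 UMIs lay in 2 cells. Pygl, the liver-type glycogen phosphorylase, was among the most widely seen, in 80.9% of cells at 1010 against 56.0 CPM (18.0-fold, 15.2 to 21.4).

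Nhsl2, Lilra6, Gadd45a and Nfe2 were between 22.0-fold and 37.3-fold higher. Nfe2 encodes a transcription factor of platelets and red cells, and Gadd45a a protein of the DNA damage response. Syne1 and Slc17a7 also ranked among the 15 highest, at 350 and 372 CPM, but rods held 243 and 1550 CPM of them. Slc17a7 is the vesicular glutamate transporter of photoreceptors, and its higher level moved with the rod markers.

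The other leukocytes themselves held 43 cells with at least 3 rule genes. Against the 270 other leukocytes with at most 1 rule gene, a setting chosen after the data had been seen, 13 of the 15 genes named as higher moved further up by over 1.5 times. Cd24a was then 162-fold higher (126 to 212), Serpinb2 238-fold (88.4 to 899) and Nhsl2 153-fold (79.9 to 329). Mmp9 was 631-fold higher (169 to 5298, on 2 UMIs in the other leukocytes) and passed Cd24a by its lower bound, so which gene leads depends on this choice.

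The 10 named genes that were lowest relative to other leukocytes follow. Olfml3, a microglial gene, had 2 UMIs in the granulocytes against 2503 in the other leukocytes, or 73.4-fold lower (20.3 to 607). Sparc stood at 33.2 against 920 CPM (27.7-fold lower) and Rnase4 at 11.1 against 337 CPM (30.5-fold lower, on 3 UMIs, 10.4 to 148). Olfml3 and Sparc were among the markers that chose the microglia, so their values are a description. Csf1r, the receptor on which microglia depend, was 16.2-fold lower (11.0 to 24.8), on 26 UMIs of which 4 lay in the 113 cells without markers of another class. Without the 23 cells that have such markers, Csf1r was 64.1-fold lower (25.0 to 235). Cd81, a tetraspanin, was 16.5-fold lower. Hebp1 had 0 UMIs in the granulocytes and was at least 13.4-fold lower against the limit of 3 counts over the set.

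Ctss, the lysosomal protease cathepsin S, was 13.1-fold lower and Apoe, the lipid carrier, 11.6-fold lower. Cd74, the chaperone of MHC class II and highest in dendritic cells (13615 CPM), was 13.7-fold lower, and Arg1, the arginase of alternatively activated macrophages, 14.2-fold lower. The comparison leaned on the microglia, which were most of the other leukocytes. Without the 23 cells with markers of another class, Ctss was 25.7-fold, Cd74 22.0-fold and Arg1 22.9-fold lower, and Serpinb2 74.2-fold higher. Olfml3 then had 0 UMIs and was at least 29.8-fold lower, and Hebp1 at least 8.17-fold.

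Set against the 36 monocytes or macrophages alone, 15 of the 25 named genes moved by over 1.5 times. Sparc and Cd81 turned round, with log2 ratios of 1.11 and 0.75, and their intervals (0.738-fold to 6.42-fold and 0.906-fold to 3.12-fold) held equal levels. Olfml3 was 3.13-fold lower (0.697 to 28.8), Rnase4 5.92-fold (1.86 to 30.1) and Csf1r 7.71-fold, with Hebp1 at least 6.61-fold, while Arg1 was 38.5-fold lower. The interval of Olfml3 thus also held equal levels. Of the genes higher in granulocytes, Cxcl2 was 6.07-fold, Nfe2 8.50-fold, Retnla 4.79-fold and Rab44 19.2-fold higher in this setting. Rflnb was 125-fold (42.0 to 609), Mmp9 163-fold (28.4 to 6506), Pglyrp1 74.7-fold (28.6 to 278) and Syne1 45.5-fold higher (17.2 to 170), on 1 to 4 UMIs each in the monocytes or macrophages.

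**Figure D3:**
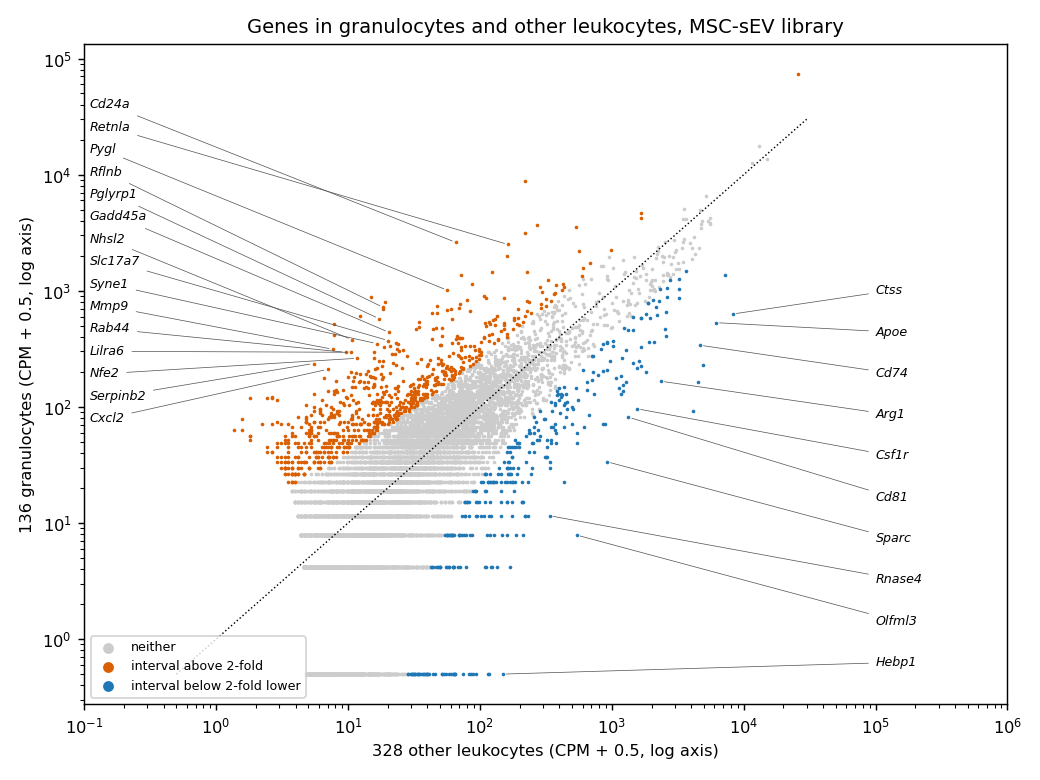
Level of 10366 genes in the 136 granulocytes (vertical) and the 328 other leukocytes (horizontal) of the MSC-sEV library, as CPM + 0.5 on log axes, with the dotted line at equal levels. The 15 named genes higher in granulocytes are labelled at the left and the 10 lower at the right; 739 genes (orange) and 336 genes (blue) had intervals beyond 2-fold.

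The genes were then read by role, from lists given by how many members were called, beside 7.13% of all genes called higher and 3.24% lower. A single call in a list of 9 to 20 genes is near these shares and is given as a value only. Among 9 tested transcription factors of granulocytes 3 were called higher and 1 lower. Besides the rule gene Cebpe, those called higher were Cebpb, a partner of it, seen in 74.3% of cells (1113 against 376 CPM, 2.96-fold), and Id2 (604 against 217 CPM, 2.78-fold). Cebpa, which acts before Cebpe in the myeloid line, was called lower, at 11.1 against 220 CPM. Spi1, which encodes PU.1, stood at 339 CPM in granulocytes and 377 CPM in other leukocytes.

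Among receptors for survival and growth factors, 2 of 14 tested genes were called higher, 1 of them Il1rl1 (14.8-fold, 10.5 to 20.8), and 1 lower, Csf1r. The other called higher was Il1r2, the decoy receptor for interleukin 1, at 47.9 against 8.00 CPM (5.99-fold, 2.92 to 11.5). Csf2rb, the shared signalling chain for interleukin 3, interleukin 5 and GM-CSF, was seen in 29.4% of granulocytes and stood at 236 against 221 CPM.

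Receptors for chemoattractants held 6 called higher of 13 tested and 2 lower, with a median log2 ratio of 1.11 against 0.13 for all genes. Beyond Ccr3, Cxcr4, the receptor that holds leukocytes in bone marrow and tissue, was seen in 60.3% of granulocytes (763 against 70.5 CPM, 10.8-fold, 9.05 to 12.9). Ccr1 stood at 361 against 101 CPM (3.58-fold), Cxcr2 at 195 against 11.0 CPM (17.7-fold, with 32 of its 53 UMIs in 3 cells that held S100a8 or S100a9 without Ccr3), and Ltb4r1, the leukotriene B4 receptor, at 103 against 20.1 CPM (5.13-fold). P2ry10, a receptor for lysophosphatidylserine, was called as well, at 122 against 20.5 CPM (5.92-fold). Ptgdr2, a prostaglandin D2 receptor of eosinophils, and Hrh4, the histamine H4 receptor, had 0 UMIs.

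Ligands that draw eosinophils in were read in the granulocytes and in classed cells of the MSC-sEV library. The 625 cells without a class are not in the levels by class, though they count in the sums over all barcodes. The levels by class thus leave out part of the possible sources. Ccl24, eotaxin 2 and a ligand of CCR3, stood at 214 CPM in granulocytes, against 5888 CPM in monocytes or macrophages, 1469 in dendritic cells and 1022 in microglia. Over all barcodes it had 15537 UMIs in the MSC-sEV library and 3 in PBS. Such sums are not scaled to the library totals, 16987131 UMIs in MSC-sEV and 8439740 in PBS. The libraries also differed in microglia, 247 and 30 cells. Ccl8 had 5568 and 0 UMIs and Ccl7 1244 and 41. Ccl11, eotaxin 1, had 2 UMIs in MSC-sEV and 1 in PBS. Il5 had 15 UMIs in the MSC-sEV library, 5 of them in the 19 T or innate lymphoid cells, and 0 in PBS. Ccl5, another ligand of CCR3, stood at 280 CPM in granulocytes, against 414 CPM in monocytes or macrophages, 1851 in dendritic cells and 257 in microglia, and had 4240 UMIs in MSC-sEV and 874 in PBS. Il33, the ligand of the receptor that Il1rl1 encodes, had fewer UMIs in MSC-sEV (469) than in PBS (672). Of 4 attractants tested, 0 were called higher and 2 lower in granulocytes.

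Enzymes of lipid mediators included 6 called higher of 12 and 3 lower. With the rule gene Alox15, these were Alox5, the 5-lipoxygenase (136 against 7.35 CPM, 18.5-fold), its partner Alox5ap, seen in 74.3% of cells (969 against 297 CPM, 3.26-fold), and Lta4h, which makes leukotriene B4 (184 against 36.1 CPM, 5.10-fold). Pla2g7, the hydrolase of platelet-activating factor, was 11.6-fold higher at 700 against 60.1 CPM, with 209 CPM in rods. Ptgs2, the inducible cyclooxygenase, was 11.1-fold higher on a low level (55.3 against 4.98 CPM). The 3 enzymes called lower were Hpgds, the prostaglandin D2 synthase of leukocytes (7.37 against 187 CPM), Ltc4s, which makes leukotriene C4 (36.9 against 313 CPM), and Ptgs1 (66.3 against 430 CPM).

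Among cytokines and chemokines 4 of 21 tested were called higher and 5 lower. Ccl6, a chemokine of myeloid cells, dominated: it was seen in 94.1% of granulocytes, with a median of 5 UMIs (0 to 45), at 3712 against 271 CPM (13.7-fold, 12.6 to 14.9). Il4, the type 2 cytokine, had 22 UMIs in 14.0% of granulocytes, 81.1 against 3.68 CPM (22.1-fold, 11.2 to 44.2), and 0 UMIs in the PBS library. Il5 and Il13 had 0 UMIs in granulocytes. Il1b stood at 560 against 572 CPM, with 73 of its 152 UMIs in 3 cells. Ccl2, Ccl3 and Ccl4 were at 114, 84.8 and 103 CPM in granulocytes, against 399, 252 and 433 CPM in other leukocytes.

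Tnfsf14, the cytokine LIGHT, was called higher on a low level (40.5 against 7.57 CPM), and Il1a lower, on 1 UMI.

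Growth and neuroprotective factors were sparse. Of 18 listed, 10 had 0 UMIs in the granulocytes, among them Bdnf, Cntf and Ocm, which encodes oncomodulin. Of 9 tested, 1 was called higher and 3 lower. The 1 was Hbegf, a ligand of the EGF receptor, at 33.2 against 6.70 CPM. Igf1 stood at 22.1 against 231 CPM, and Grn, the lysosomal growth factor progranulin, at 593 against 1446 CPM, both called lower. Tgfb1 was at 114 against 216 CPM.

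Of 8 tested genes of the respiratory burst oxidase 3 were called higher, 0 lower and 5 neither. Its catalytic subunit Cybb was seen in 82.4% of granulocytes (1449 against 228 CPM, 6.35-fold, 5.64 to 7.13). Ncf1, a cytosolic subunit, was also called, at 1076 against 284 CPM (3.79-fold). The membrane partner Cyba was at 674 against 1102 CPM.

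Among adhesion molecules 4 of 13 were called higher and 0 lower. Among these, Itgal, the alpha chain of LFA-1, stood at 225 against 38.9 CPM (5.77-fold), Cd44 at 505 against 130 CPM (3.88-fold) and Itgb7 at 129 against 39.2 CPM (3.29-fold). Itgam, which encodes CD11b, was seen in 68.4% of granulocytes at 641 against 439 CPM.

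Survival genes held 3 called higher of 17 and 1 lower. Pim1, a kinase induced by cytokine receptors, was seen in 91.9% of granulocytes, at 2219 against 562 CPM (3.95-fold, 3.60 to 4.31). Bcl2 (99.5 against 29.6 CPM) and Xiap (280 against 102 CPM) encode inhibitors of cell death, though rods held 664 CPM of Xiap. Bcl2a1b was called lower, at 111 against 454 CPM. Mcl1, a main anti-apoptotic protein of granulocytes, was at 1264 against 609 CPM (2.08-fold, 1.85 to 2.32), which is not beyond 2-fold by its lower bound. Immediate-early and stress genes had 4 of 15 called higher and 2 lower, led by Dusp1 (3524 against 539 CPM, 6.54-fold), with Junb (2.54-fold), Ier2 (2.60-fold) and Egr1 (2.25-fold) also called. Jun and Atf3 were called lower, at 262 against 1197 CPM and 51.6 against 183 CPM.

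Of 13 genes of activation and immune checkpoints 3 were called higher and 2 lower. Slc7a11, the cystine importer, stood at 192 against 11.9 CPM (16.1-fold, 10.8 to 24.0), the activating receptor Pira2 at 136 against 18.8 CPM (7.25-fold) and the inhibitory receptor Cd300lf at 372 against 116 CPM (3.21-fold). Cd86 and Pdcd1lg2, ligands read by T cells, were lower, at 11.1 against 122 CPM and 7.37 against 55.6 CPM. Of 14 genes of hypoxia and glycolysis 2 were called higher, the glucose transporter Slc2a3 (84.8 against 5.84 CPM, 14.5-fold) and the oxygen sensor Egln3 (92.1 against 22.9 CPM, 4.02-fold), and 0 lower.

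The lists that were mostly lower were those of antigen presentation and alternative activation. Of 7 MHC class II genes 6 were called lower and 0 higher, with a median log2 ratio of -2.70. H2-Aa was part of the rule, and H2-Ab1 and H2-Eb1 were among the markers that chose the dendritic cells. Of 8 alternative activation genes 5 were called lower and 1 higher, and the 1 was Retnla. Chil3, called lower here, was among the markers that chose the monocytes or macrophages. Receptors for antibody and pathogens had 7 of 15 lower, among them Fcgr1, Fcgr2b, Fcgr3 and Fcgr4, and 2 higher, Siglece (111 against 18.6 CPM) and Clec4e. Interferon response genes had 4 of 20 lower and 1 higher, a smaller share than the 7.13% of all genes; it was Rsad2 (151 against 36.3 CPM, 4.16-fold). For the cell cycle, 0 of 10 genes were called higher and 1 lower.

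**Figure D4:**
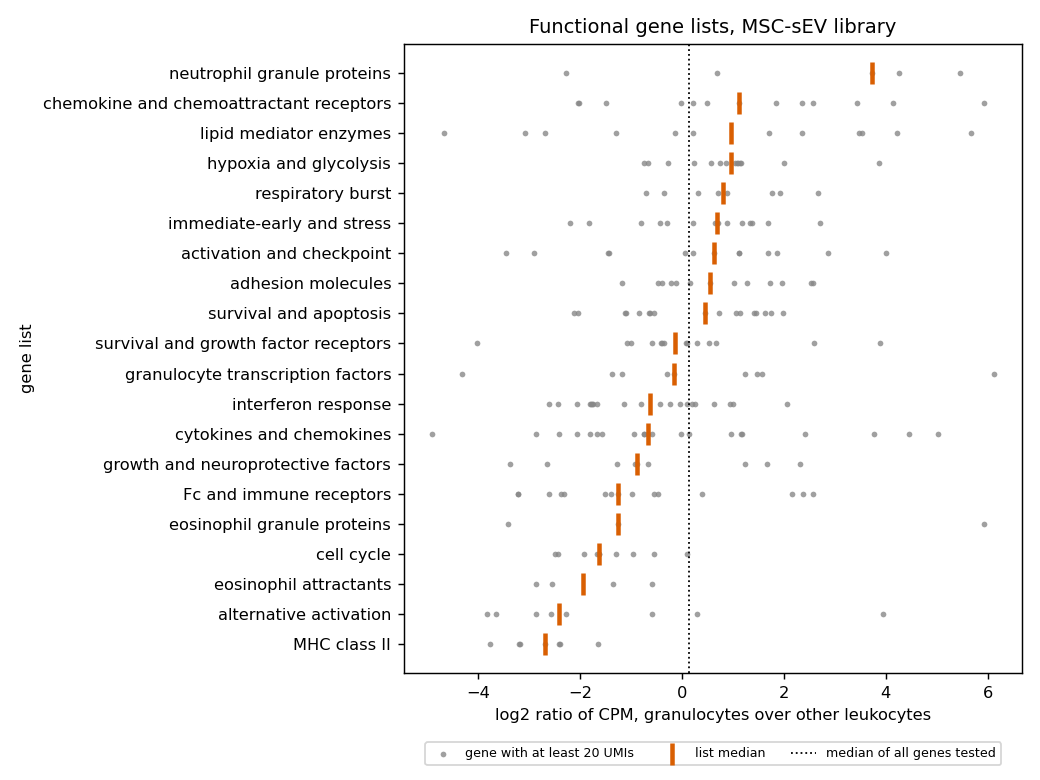
Log2 ratio of CPM, the 136 granulocytes over the 328 other leukocytes, for the genes of 20 functional lists (gray points, genes with at least 20 UMIs), with each list's median (orange bar) and the median of all 10366 genes (dotted line, 0.13). Receptors for chemoattractants have a median of 1.11 and MHC class II genes one of -2.70.

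Within the 136 granulocytes, cells with Ccr3 were then set beside cells with S100a8 or S100a9. These genes chose the sets, so their own values are a description. Ccr3 without either S100 gene was found in 88 cells, both in 12, S100a8 or S100a9 without Ccr3 in 3, and neither in 33. The 88 cells had a median of 1280 UMIs, the 12 one of 1938, the 3 one of 4984 and the 33 one of 1148, so the 3 cells were the deepest set. A UMI of S100a8 or S100a9 was seen in 12% of the 100 cells with Ccr3 and in 8.33% of the 36 without.

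Most S100 RNA of the granulocytes lay in 1 cell. Of 683 UMIs of S100a8 and S100a9, this cell held 583 (85.4%): 320 of S100a8 and 263 of S100a9. It had 4984 UMIs in all, 0 of Ccr3, 2 of Retnlg, 18 of Csf3r, 22 of Cxcr2, 37 of Il1b and 16 of Stfa2l1, a gene of mouse neutrophils. A second cell without Ccr3 held 24 S100 UMIs with 6 of Csf3r, 6 of Cxcr2, 35 of Il1b and 1 of Retnlg.

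The third cell of the set differed from both. It held 6 UMIs of S100a9 and 0 of S100a8, with 71 of Retnlg, 8 of Csf3r, 1 of Il1b, 19 of Siglech, a microglial receptor, and 10 of Ly6c2, a monocyte gene. Among the 12 cells with Ccr3 and an S100 gene, S100 UMIs ran from 1 to 26, and Retnlg from 0 to 91. The cell with 26 S100 UMIs had 1 of Ccr3, 41 of Retnlg, 5 of Csf3r and 4 of Cxcr2, and was the only one of the 12 besides a cell with 13 S100 UMIs to hold more than 1 UMI of Csf3r.

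Of the 15 cells with either S100 gene, 5 held at least 10 such UMIs and 5 held 1 or 2. In rods, which should lack them, 0.824% had a UMI of S100a8 and 0.329% of S100a9. In the whole MSC-sEV library 81 cells had a UMI of S100a8 or S100a9. Outside the granulocytes, 10 cells had at least 10, and 7 of these showed 0 or 1 rule gene. The rule therefore caught few cells rich in S100.

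Set against each other, the 88 cells with Ccr3 only and the 3 with S100 only differed along the lines of those 3 cells. Of 1675 genes tested, 18 were called higher in Ccr3 cells (1.07%) and 45 lower (2.69%). Csf3r was seen in 5 of 88 cells and 3 of 3 (29.7 against 2132 CPM, 71.7-fold lower, 27.7 to 236), and Cxcr2 in 6 of 88 and 3 of 3 (41.6 against 2132 CPM, 51.2-fold lower). Wfdc17, a small antiproteinase-like protein of myeloid cells, was 44.8-fold lower, with 31 of the 32 UMIs of the S100 cells in 1 cell. Il1b was 21.0-fold lower (232 against 4863 CPM). Ifitm2, Cxcl2, 2810474O19Rik, Zfp36l1 and Tyrobp were between 5.99-fold and 27.4-fold lower. Stfa2l1 had 0 UMIs in the Ccr3 cells and 20 in the S100 cells.

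Higher in the Ccr3 cells were Cd24a (3013 against 533 CPM, 5.65-fold, 2.85 to 13.2) and Ccl6 (4297 against 933 CPM, 4.61-fold). So were Il1rn, the interleukin 1 receptor antagonist (1557 against 133 CPM, 11.7-fold, 3.20 to 97.0), and Basp1 (19.7-fold, on 1 UMI in the S100 cells, 3.50 to 782). Dusp1 and Egr1 were 4.18-fold and 4.81-fold higher. Retnla had 440 UMIs in 33 of the 88 cells and 0 in the 3, at least 13.1-fold higher against the limit of 3 counts over the set. Most of the 88 cells lacked Retnla as well, so its absence from 3 cells cannot tie it to Ccr3. Among all granulocytes, Retnla was seen in 38% of those with Ccr3 and 36.1% of those without. Its level in these sets was 2766 against 1894 CPM (1.46-fold, 1.22 to 1.76). Bhlhe40, at least 3.06-fold higher, turned round when a cell needed 2 UMIs to be placed or was thinned, with log2 ratios of -0.10 and -0.76.

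Most of these folds depended on how cells were placed. When 2 UMIs were needed, 16 of the 20 named genes moved by over 1.5 times, after thinning 12, and without the cells with markers of another class 13. Il1rn was 1.24-fold higher (0.849 to 1.87) with 2 UMIs needed and 2.62-fold (0.866 to 13) after thinning, so both intervals held equal levels. Basp1 was 2.70-fold (1.47 to 5.52) and 1.77-fold higher (0.574 to 8.85) in the same settings, and Ccl6 2.65-fold (1.92 to 3.76) and 1.44-fold (0.783 to 2.94). Csf3r was 54.6-fold (19.7 to 211), 81.3-fold (10.9 to 3609) and 142-fold lower (35.3 to 1240) in the 3 settings. Sag, a rod gene that encodes visual arrestin, was 8.21-fold higher in the shallower Ccr3 cells, so rod RNA moved with this contrast.

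**Figure D5:**
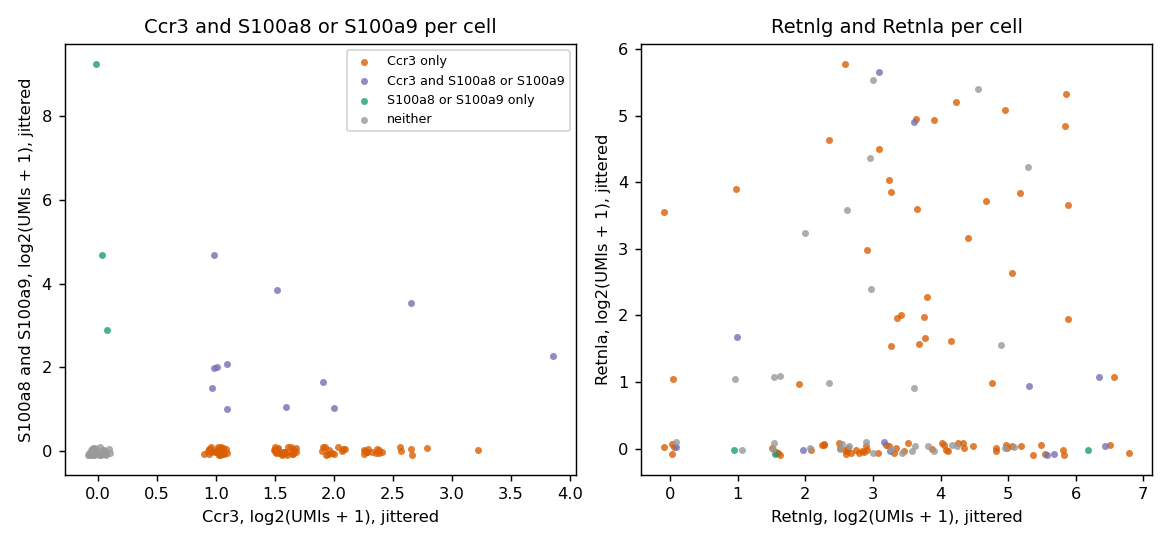
Left, UMIs of S100a8 and S100a9 against UMIs of Ccr3 in each of the 136 granulocytes; right, UMIs of Retnla against Retnlg; all axes are log2(UMIs + 1) with jitter, and colours give the 4 sets by Ccr3 and S100. Of the 3 green cells at 0 Ccr3, 1 holds 583 S100 UMIs, and Retnla is present in cells with few and with many Retnlg UMIs.

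Because 3 cells carry that contrast, the 100 cells with Ccr3 were also compared with the 36 without. This was added after the data had been seen. Of 2485 genes, 6 were called higher with Ccr3 (0.241%) and 16 lower (0.644%). Retnlg stood at 10392 against 5125 CPM (2.03-fold, 1.82 to 2.26), Cd24a at 3086 against 1498 CPM (2.06-fold), Ccl6 at 4393 against 2104 CPM (2.09-fold) and Gapt at 945 against 433 CPM (2.18-fold). None of these 4 intervals lay wholly above 2-fold. Mmp9 was at 315 against 309 CPM, Siglecf at 157 against 149 CPM and Il1rl1 at 226 against 297 CPM, all within counting error.

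Prg2 was seen in 25.0% of the cells with Ccr3 and 8.33% of those without (147 against 49.5 CPM, 2.97-fold, 1.04 to 11.6). Csf3r, Cxcr2 and Il1b were lower with Ccr3, at 99.7 against 421, 94.5 against 433 and 262 against 1263 CPM. These 3 differences hold the 3 S100 cells, which have 32, 32 and 73 of the 34, 35 and 102 UMIs found without Ccr3. Retnlg, Siglecf, Mmp9 and Cd24a were seen in granulocytes with and without a Ccr3 UMI.

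Retnla, which encodes resistin-like alpha, a protein induced by interleukin 4 and interleukin 13, lies on chromosome 16 (48842551 to 48844461, GRCm38, + strand), 28160 bases from Retnlg (48872621 to 48874496, + strand). Retnla was seen in 51 of 136 cells (37.5%, 29.4% to 46.2%), against 94.1% for Retnlg. A UMI of Retnla remained in 27.2% of granulocytes after thinning, against 3.96% of other leukocytes and 1.24% of rods. Its level was 2506 CPM in granulocytes, 523 CPM in monocytes or macrophages and 136 CPM in microglia, and it had 0 UMIs in the PBS library. Granulocytes held 6.87% of the 9894 Retnla UMIs of the MSC-sEV library.

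Where present, Retnla was often abundant. The 51 cells had a median of 8 UMIs and at most 52, and 24 cells with at least 10 held 609 of the 680 UMIs (89.6%). The cells with and without Retnla were of like depth, with medians of 1367 and 1197 UMIs. Ccr3 stood at 904 CPM in cells with Retnla and 877 CPM in those without (1.03-fold, 0.790 to 1.34), Retnlg at 8666 and 8934 CPM, Alox15 at 600 and 614 CPM, and Cebpe at 492 and 533 CPM. Across the 136 cells, Retnla and Retnlg per 10000 UMIs had a Pearson r of 0.08 and a Spearman rank correlation of 0.07, given as a description, since the cells share a library and differ in depth. Dusp1 was at 4038 CPM in cells with Retnla and 3164 CPM in those without (1.28-fold, 1.12 to 1.45), and Gapt at 654 and 890 CPM (0.735-fold, 0.546 to 0.981).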

How the data were processed

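Per the labels' protocols, retinas of 6 mice per group were pooled, enriched on CD45 beads and made into droplet 3′ libraries (Chromium v3 chemistry). Per the labels, the authors deposited raw UMI counts per gene and barcode, from Cell Ranger 3.0.2 on mm10, as the submitters' processing notes list. The annotation release is not given in the sources used here. The deposited barcode and gene tables gave names only.

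From these counts, barcodes under 500 UMIs, under 300 genes or over 15% mitochondrial UMIs were dropped, and the rule was applied. Each other cell took the class with the most of its 8 markers seen, at least 4 (rods 5) and no tie. Rods also had to show under 2 markers of every leukocyte class. Sums were compared as CPM with exact conditional binomial intervals, sums of counts and shares with exact Poisson and Clopper-Pearson intervals. Doublets were not removed, and a setting left out the 2% of cells with the highest Scrublet scores. The members, markers and gene lists were chosen with earlier results of these data known.

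The text names the 15 highest and 10 lowest genes by the interval bound nearest to 1 that had 50 UMIs or more and were seen in 10% of cells or more. Rule, mitochondrial, ribosomal protein and sex-linked genes were left out. A few genes are not reported here. Between Ccr3 and S100 cells, the 10 highest and 10 lowest with at least 20 UMIs and 20% of cells were taken. Intervals were tested on simulated counts drawn independently for each gene, without clumping of UMIs in single cells. That test cannot show how the intervals hold for genes carried by few cells. Python 3.11.15, scipy 1.17.1, pandas 2.3.3 and scanpy 1.11.5 were used. Gene positions came from GENCODE for GRCm38, the build of mm10.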

Additional observations from a re-analysis of the deposited data

Results flagged for a closer look

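In the MSC-sEV library, 71 cells showed at least 3 rule genes and lay outside the granulocytes, because 67 exceeded the C1q limit and 30 the H2-Aa limit; the PBS library had 0 such cells. They held a median of 7710 UMIs, and 39 of them were classed as microglia. The rule genes stood at 2988 CPM in them, against 12889 CPM in the granulocytes. A further 5 barcodes of the MSC-sEV library, and 0 of PBS, showed at least 3 rule genes but did not pass the cell filter. All 5 had over 15% mitochondrial UMIs, and together they held 132 UMIs of Retnlg and 6 of Ccr3.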

How the results depend on the processing

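The number of granulocytes ran from 92 (at least 1000 UMIs per cell) to 147 (2 rule genes) in the MSC-sEV library and stayed at 0 in the PBS library under every setting tried. Genes called against other leukocytes ran from 494 to 748 higher and from 281 to 378 lower. The split by Ccr3 and S100 was less stable. Cells with Ccr3 only numbered 57 with at least 1000 UMIs. Genes lower in Ccr3 cells numbered 23 with the stricter C1q and H2-Aa limits. When 2 UMIs were needed to place a cell, 4 cells had both, 8 had S100 only, and 28 genes were lower. After thinning to 500 UMIs, 2 cells had both and 6 had S100 only, with 3 genes higher and 3 lower, on fewer counts. Against monocytes or macrophages alone, the log2 ratio of Sparc was 1.11 and that of Cd81 0.75; for Bhlhe40 it was -0.10 with 2 UMIs needed and -0.76 after thinning, and the cause was not tested. Over all settings, single named genes reversed in 2 cases of each comparison, moved beyond the counting interval in 66 and 37, and did not in 225 and 175. Named genes moved by over 1.5 times most often against other leukocytes with at most 1 rule gene (13 of 25) or monocytes or macrophages alone (15), and with the stricter C1q and H2-Aa limits 9 moved. Weighting cells equally or subtracting the rod level gives no interval and so no count of genes. The settings with cells free of other markers, with other leukocytes of at most 1 rule gene and by Ccr3 alone were chosen after seeing the data. No paired analysis was possible because each group has 1 library.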
